A study of Mus musculus with 22 samples.

Results

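Cluster 7 was 1 of 3 tanycyte clusters among whole hypothalamic cells sequenced 5 days after an injection of fibroblast growth factor 1 (FGF1). Its members were chosen by the cluster number that the deposited metadata give each cell, and they were 3318 of 54890 cells, from 12 mice. The neighbouring tanycyte clusters 0 and 10 held 9509 and 1577 cells. All mice were male, leptin-deficient ob/ob animals of 11 weeks, with 1 mouse per sample. In the whole-cell samples, 6 mice received 3 µg of FGF1 in 1 intracerebroventricular injection and 6 received vehicle and were pair-fed to the FGF1 mice, and both groups were killed on Day 5. Tanycyte nuclei from 10 other ob/ob mice, 3 per group on Day 1 and 2 per group on Day 5, were a second readout. By the study's methods those mice came from Jackson Laboratories and the whole-cell mice from Janvier Labs, and the labels give them different chow. Treated and control animals alike lacked leptin, so no leptin-sufficient mouse enters any comparison, and all whole cells came through tissue dissociation.

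Tanycytes are elongated glia that line the floor and lower walls of the third ventricle and send a long process into the hypothalamus or to the vessels of the median eminence. They stand between cerebrospinal fluid, blood and neurons, take up and convert thyroid hormone, sense glucose and pass signals such as leptin into the brain. Ventral (beta) tanycytes reach the median eminence, and dorsal (alpha) tanycytes reach the nuclei beside the ventricle.

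Cluster 7 cells were the deepest of the tanycytes, with a median of 2123 unique molecular identifiers (UMIs, each standing for 1 captured transcript) and 1070 genes, against 1285 and 1712 UMIs in clusters 0 and 10. Summed per mouse, cluster 7 held 10774 to 2566399 UMIs. Of its cells 2728 came from FGF1 mice and 590 from vehicle mice, against 5458 and 4051 in cluster 0 and 1018 and 559 in cluster 10. Levels and shares over all cells of a cluster thus weigh FGF1 mice most in cluster 7. The median UMIs per cell of a mouse ran from 1255 to 2652 in FGF1 mice and from 1308 to 2315 in vehicle mice. A barcode of another library was shared by 206 cells of cluster 7 and by 3616 of all 54890 cells, and none was repeated within a library. Levels are given as CPM, the UMIs of a gene scaled to a common total over the summed cells.

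The tanycyte label was read against markers. A list of 14 tanycyte genes, with Crym among them, summed to 7912, 5165 and 6665 CPM in clusters 7, 0 and 10. It summed to 1707, 1796, 1711 and 3536 CPM in clusters 6, 1, 2 and 3 (ependymal-, astrocyte-, oligodendrocyte- and endothelial-like). Rax, another member, stood at 57.1, 59.3 and 58.4 CPM in clusters 7, 0 and 10. In a coarser clustering of the same metadata, 99.9% of cluster 7 cells fell in the tanycyte cluster. The 5 markers given for these cells were Crym, a cytosolic thyroid hormone binding protein, Thrsp (Spot 14), a thyroid hormone responsive protein of fatty acid synthesis, Frzb, a secreted Wnt antagonist, Kctd14, a member of the BTB/POZ domain family, and Ucma, a secreted Gla-rich protein best known from cartilage. Crym stood at 1013, 469 and 222 CPM over the cells of clusters 7, 0 and 10. Thrsp stood at 1413, 593 and 856 CPM and Kctd14 at 401, 181 and 203 CPM in the same order, and Ucma was lower throughout, at 124, 55.0 and 85.7 CPM. Among 20 clusters of whole cells, cluster 7 ranked 1 for Crym, Thrsp, Kctd14 and Ucma and 2 for Frzb. The 5 markers were given for this cluster, so the ranks and the shares of cells with them describe it and do not test its label. Frzb did not set cluster 7 apart from cluster 10, with 367 CPM against 400 CPM, whereas cluster 0 had 126 CPM.

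**Figure D1:**
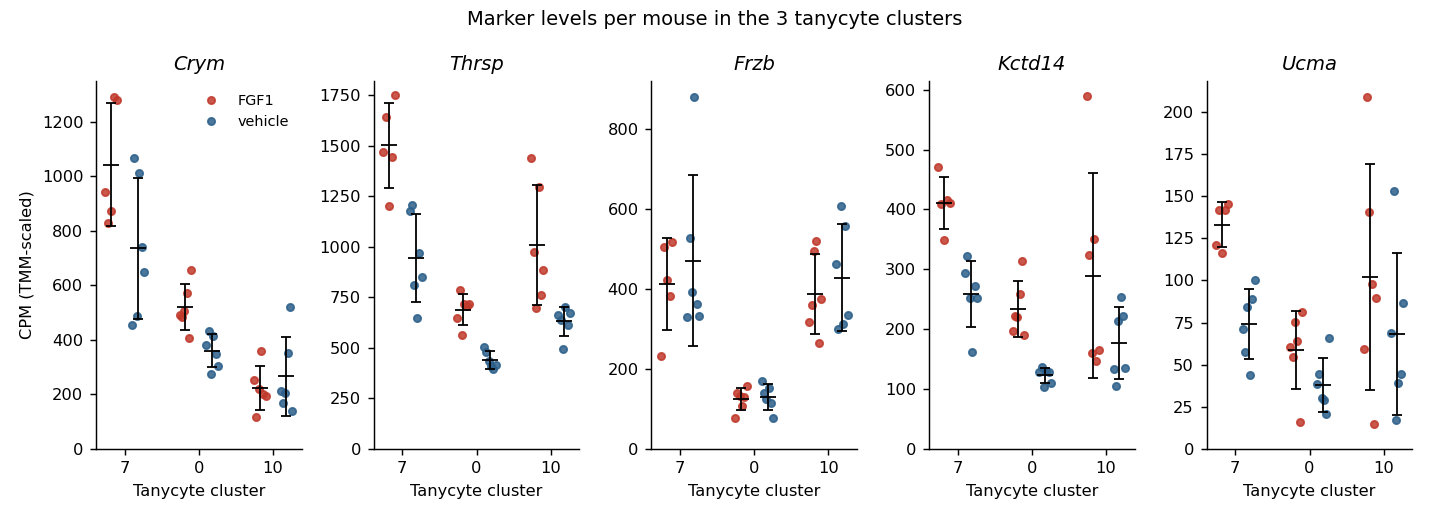
Levels of the 5 markers in clusters 7, 0 and 10, in CPM (vertical axis, linear), with 1 point per mouse in the colour of its treatment and the mean and SD of each group. Crym, Thrsp and Kctd14 are highest in cluster 7, Frzb is alike in clusters 7 and 10, and Thrsp in cluster 7 ranges from 1200 to 1753 CPM in FGF1 mice and from 646 to 1206 CPM in vehicle mice.

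A UMI of Thrsp was seen in 79.2% of cluster 7 cells and one of Crym in 65.8%, and the shares were 48.5% for Kctd14, 42.6% for Frzb and 18.1% for Ucma. Free RNA gives some UMIs to any droplet. In the oligodendrocyte-like cluster 2, at a median of 1299 UMIs, Thrsp was seen in 6.92% of cells, Crym in 2.96%, Kctd14 in 2.23%, Frzb in 1.17% and Ucma in 0.702%. With every cell thinned to 700 UMIs, which cost no cell, Thrsp was seen in 52.4%, 29.0% and 37.8% of clusters 7, 0 and 10, and Crym in 40.6%, 22.0% and 11.9%. At that depth 13.5% of cluster 7 cells carried at least 3 of the 5 markers, against 2.91% of cluster 0 and 4.12% of cluster 10, and 559 of the 3318 cluster 7 cells showed none of them. In cells of FGF1 mice these shares were 14.8%, 3.57% and 4.52% in clusters 7, 0 and 10, and in cells of vehicle mice 7.63%, 2.02% and 3.40%. Within cluster 7 Thrsp was seen in 55.0% of thinned cells of FGF1 mice and 40.2% of those of vehicle mice, and Crym in 42.8% and 30.5%.

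Markers of position set cluster 7 apart from cluster 10. The 7 ventral markers summed to 659 CPM in cluster 7, between the 339.9 CPM of cluster 0 and the 3036 CPM of cluster 10. Among them Col25a1, a transmembrane collagen, stood at 72.1, 18.5 and 1090 CPM and Scn7a, a sodium channel, at 10.6, 7.38 and 786 CPM in clusters 7, 0 and 10. Frzb, also 1 of the 7, made up 367, 126 and 400 CPM of these sums. Cldn10, at 112, 125 and 514 CPM, was lower in cluster 7 than in cluster 0, whereas Fgf10, Penk and Adm were lowest in cluster 0 and highest in cluster 10. Dio2, the deiodinase that activates thyroid hormone, stood at 28.8, 23.4 and 181 CPM in clusters 7, 0 and 10. The dorsal markers Pdzph1, Vcan, Cd59a and Nr2e1 were higher in cluster 7 than in cluster 10, and the 5 dorsal markers summed to 450.1, 369.5 and 153.3 CPM in clusters 7, 0 and 10. Against cluster 0 they were mixed, with Pdzph1 at 249.6, 165 and 95.9 CPM and the matrix proteoglycan Vcan at 141, 104 and 35.6 CPM in that order, but Cd59a at 22.1, 46.1 and 11.6 CPM, Nr2e1 at 36.6, 41.1 and 9.62 CPM and the glutamate transporter Slc17a8 at 1.06, 13.1 and 0.642 CPM. The 7 ependymal markers summed to 1134 CPM in cluster 7 and to 7217 CPM in the ependymal-like cluster 6. They were uneven, since Dynlrb2, a dynein light chain, stood at 420 CPM in cluster 7 against 994 CPM in cluster 6 and Rarres2 (chemerin) at 372 against 1892 CPM, whereas Ccdc153 stood at 6.21 against 1393 CPM and Tmem212 at 8.46 against 1332 CPM. The oligodendrocyte markers summed to 341 CPM in cluster 7 and to 32400 CPM in cluster 2. The astrocyte markers summed to 3558 CPM in cluster 7, near the 3514 and 3098 CPM of the oligodendrocyte-like cluster 2 and the endothelial-like cluster 3, against 14740 CPM in the astrocyte-like cluster 1.

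Genes that led cluster 7 were ranked by the smaller of 2 within-mouse differences of log2(CPM + 5), cluster 7 minus cluster 0 and cluster 7 minus cluster 10, over the 11 mice with at least 10 cells of each. The clusters were made from these values, so the differences are a description with no test. Of 2900 genes seen in at least 10% of cluster 7 cells, 948 were higher than in both other clusters and for 1 of them both differences reached 1. That gene was P3h2, a collagen prolyl hydroxylase, with differences of 1.05 ± 0.69 from cluster 0 and 1.37 ± 1.21 from cluster 10 (SD, n = 11 mice). The next was the abundant open reading frame 6330403K07Rik, at 18670, 7545 and 8312 CPM in clusters 7, 0 and 10. Its differences of 1.26 ± 0.18 and 0.94 ± 0.31 were above 0 in every mouse. Cst3 (cystatin C), a secreted protease inhibitor, stood at 35360, 23670 and 9937 CPM, with differences of 0.45 ± 0.17 and 1.41 ± 0.46. Of the 5 markers, 3 were among the 30 leading genes, namely Crym (0.94 ± 0.30 and 1.84 ± 0.72), Thrsp (1.08 ± 0.20 and 0.55 ± 0.38) and Kctd14 (0.96 ± 0.31 and 0.55 ± 0.68). Ucma and Frzb were not, with differences from cluster 10 of 0.30 ± 0.89 and 0.03 ± 0.68.

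**Figure D2:**
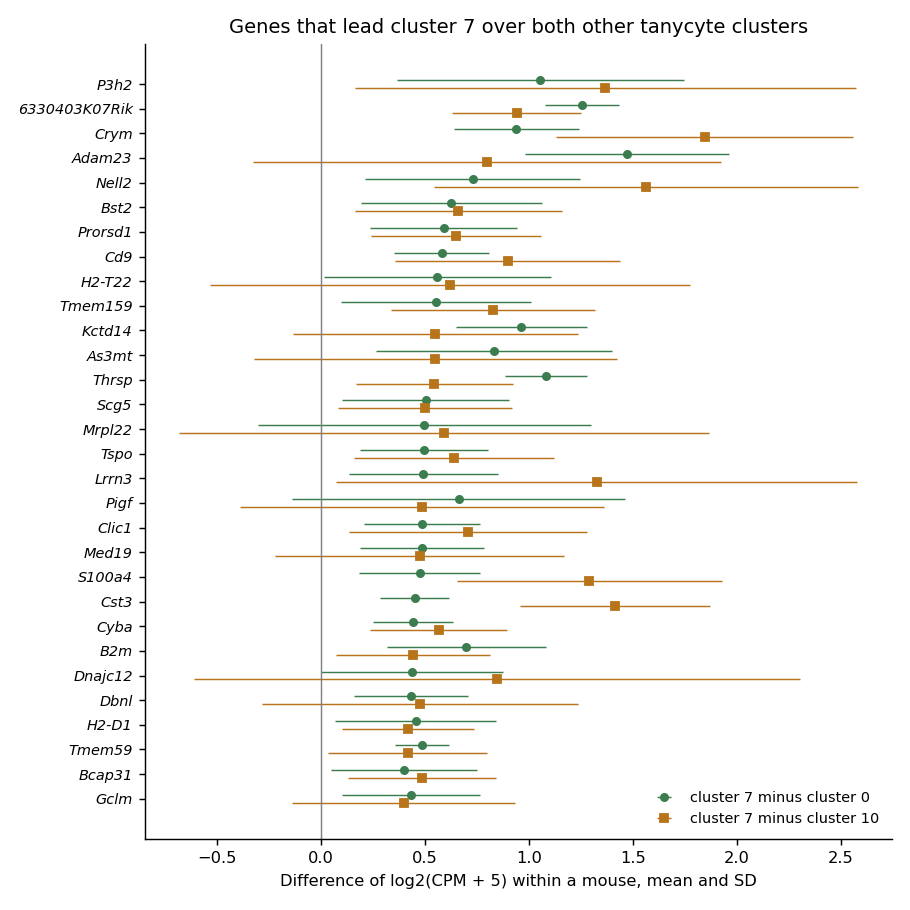
Within-mouse differences of log2(CPM + 5) for the 30 leading genes, cluster 7 minus cluster 0 and cluster 7 minus cluster 10, as means with SD over 11 mice. All means lie at or above 0.399, and 7 of the 30 genes were higher in every mouse against both clusters.

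Several leading genes belong to known groups, which were read off after the ranking. B2m, the invariant chain of MHC class I, stood at 486, 331 and 444 CPM in clusters 7, 0 and 10. The class I heavy-chain genes H2-D1 and H2-T22 led by within-mouse differences but were not highest over all cells, at 132, 118 and 148 CPM and 60.6, 43.7 and 70.2 CPM. Bst2 (tetherin), an interferon-inducible membrane protein, stood at 253, 170.1 and 208 CPM. Cd9, a tetraspanin, stood at 826, 511 and 366 CPM, and Tspo, a cholesterol-binding protein of the outer mitochondrial membrane, at 294, 182 and 166 CPM. Cyba, a subunit of NADPH oxidase, and Gclm, the regulatory subunit of the first enzyme of glutathione synthesis, were higher than in cluster 0 by 0.45 ± 0.19 and 0.43 ± 0.33. S100a4, a calcium-binding protein, stood at 332, 236 and 102 CPM. The ranking has no natural end, since the last of the 30 genes had a smaller difference of 0.399 and the next gene one of 0.397.

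The 10 genes lowest in cluster 7 against both neighbours are given as a description. Gadd45g, a growth arrest and stress gene, stood at 149, 258 and 349 CPM in clusters 7, 0 and 10, below cluster 0 in all 11 mice and above cluster 10 in 1. Zfp36, an mRNA-destabilizing protein, stood at 83.0, 122 and 345 CPM and the transcription factor gene Klf6 at 92.1, 105 and 242 CPM, and for both the SD between mice exceeded the mean difference from cluster 10 (-0.63 ± 1.27 and -0.65 ± 1.14). Igfbp5, which binds insulin-like growth factors, stood at 109.9, 241 and 236 CPM. The selenium carrier Sepp1 was the single one of the 10 that lay below both clusters in each of the 11 mice, with differences of -0.57 ± 0.40 and -0.64 ± 0.34. The zinc transporters Slc39a1 and Slc39a12, the actin proteins Gsn and Nebl and the glutamate receptor subunit Gria1 completed the list.

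The share of tanycytes that fell in cluster 7 varied widely between mice. FGF1 mice 6, 7, 10, 21, 28 and 36 gave 2.41%, 31.0%, 54.9%, 13.2%, 19.1% and 26.4% (mean 24.5% ± 18.0, SD, n = 6). Vehicle mice ranged from 4.74% over a median of 10.7% to 29.4% (mean 12.3% ± 8.92, SD, n = 6), so the groups overlapped. In the batches of the metadata, each with 1 FGF1 and 1 vehicle mouse, the FGF1 mouse had the larger share in 5 of 6 batches, by 8.51 to 25.5 percentage points, and the smaller share in batch 3, with a difference of -9.77 points. That batch held FGF1 mouse 6, with 7 cluster 7 cells among 290 tanycytes (exact 95% interval 0.976% to 4.91%, counting error only). The difference of the group means, 12.2 points, became 6.14 points without FGF1 mouse 10 and 16.6 points without FGF1 mouse 6. No test is given, because Thrsp, Kctd14 and Ucma, which mark cluster 7, themselves differed between the groups. Depth per cell also differed between the mice. Median UMIs per cluster 0 cell were 2111 in FGF1 mouse 10 and 1084 in FGF1 mouse 6, the group's highest and lowest. In vehicle mice 35 and 20 they were 1651 and 1102, again the highest and lowest of the group. These mice also held the largest and smallest share of their group. Between them the orders did not match fully, and the part of depth in the shares was not tested.

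**Figure D3:**
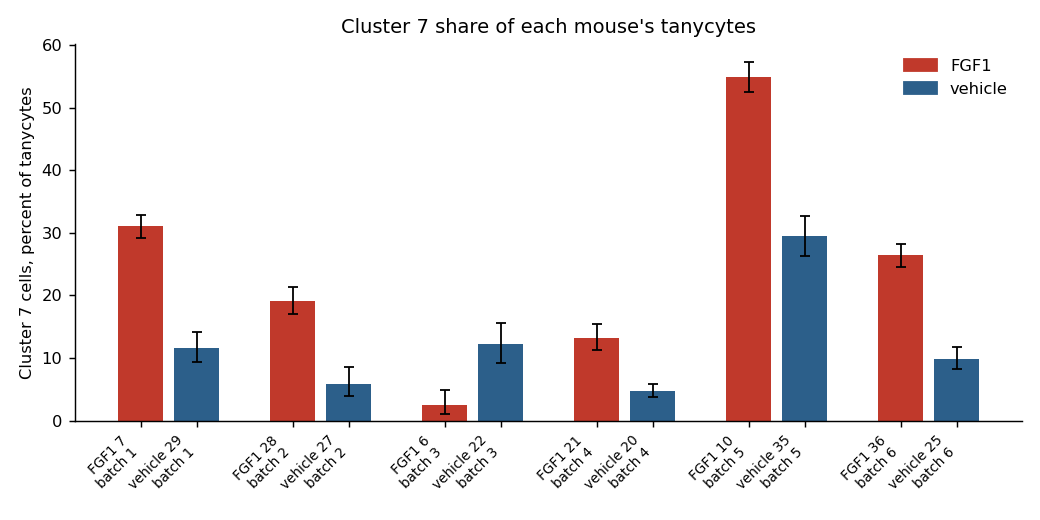
Share of each mouse's tanycytes (clusters 0, 7 and 10) that fell in cluster 7, in percent (vertical axis, from 0), with 1 bar per mouse, grouped by batch and coloured by treatment, and exact 95% binomial intervals for counting error. The bars run from 2.41% to 54.9% in FGF1 mice and from 4.74% to 29.4% in vehicle mice, and the FGF1 bar is the taller in all batches but batch 3.

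Which transcripts of cluster 7 differed 5 days after FGF1 was asked on counts summed per mouse, in the 5 FGF1 and 6 vehicle mice with at least 10 cluster 7 cells, a limit that dropped FGF1 mouse 6. By edgeR's quasi-likelihood test at a false discovery rate (FDR, Benjamini-Hochberg) below 0.05, 78 of 4027 genes differed (1.94%). Of these 39 were higher and 39 lower in FGF1 mice (0.968% each), and 636 genes had an unadjusted p below 0.05 (15.8%). The median log2 fold change over all tested genes was -0.01 and the median SE 0.212. With RLE in place of TMM scaling factors the split was again 39 higher and 39 lower. DESeq2 called 71 higher and 26 lower genes, and edgeR called 91 higher and 33 lower without the low-count filter, where the median fold change of the 4027 genes moved up by 0.13 on the log2 scale. Without vehicle mouse 25 the count was 28, of which 27 were among the 78, and with cells thinned to 700 UMIs it was 16 of 1436 genes tested.

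Of the 5 markers 3 rose after FGF1 and 0 fell, against 0.968% of all tested genes in each direction. These genes mark a cluster that was made from the same values and holds mostly cells of FGF1 mice. The count is therefore a description and no independent test of the markers. Thrsp had 1753, 1470, 1642, 1200 and 1444 CPM in FGF1 mice 7, 10, 21, 28 and 36, and 646, 911 and 1206 CPM as the lowest, median and highest of the 6 vehicle mice. The groups met only where the lowest FGF1 mouse and the highest vehicle mouse had nearly the same level, and the log2 fold change was 0.68 (SE 0.136, FDR 0.00491, edgeR). Kctd14 had 411, 472, 408, 349 and 416 CPM in the same FGF1 mice, and 162, 263 and 322 CPM as the lowest, median and highest of the vehicle mice. The groups of Kctd14 did not overlap, and its log2 fold change was 0.67 (SE 0.143, FDR 0.00858, edgeR). Ucma had 145, 121, 142, 116 and 142 CPM against 44.0, 77.7 and 100.1 CPM. It rose by 0.67 on the log2 scale (SE 0.178, FDR 0.038, edgeR), again without overlap. In the oligodendrocyte-like cluster 2 of the same mice, Thrsp averaged 124 CPM in FGF1 mice and 53.4 CPM in vehicle mice and Kctd14 55.2 CPM in FGF1 mice and 14.5 CPM in vehicle mice, differences that were not tested. Thrsp and Kctd14 were called in cluster 7 with any 1 of the 11 mice left out, whereas Ucma was called in 3 of those 11 fits. With cells thinned to 700 UMIs Thrsp was called (FDR 0.0409, edgeR) and Kctd14 was not (FDR 0.0935, edgeR). Ucma was also not called with the batch as a block (FDR 0.0568, edgeR), with at least 30 cells per mouse (FDR 0.0799, edgeR) or with at least 5, a limit chosen after seeing the data (FDR 0.0545, edgeR).

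Crym and Frzb were not called. Crym had 1281, 943, 829, 872 and 1291 CPM in FGF1 mice and 454, 696 and 1068 CPM as the lowest, median and highest of the vehicle mice, so the groups overlapped. Its log2 difference was 0.56 (95% interval 0.08 to 1.03, FDR 0.227, edgeR), which does not show that the groups were alike. With the batch as a block the difference was 0.69 (FDR 0.0325, edgeR). Frzb had 517, 231, 506, 423 and 383 CPM against 329.5, 377 and 881 CPM, with a log2 difference of -0.11 (95% interval -0.75 to 0.52, FDR 0.918, edgeR). The highest Frzb value was that of vehicle mouse 27, which had 26 cluster 7 cells, and without that mouse the difference was 0.09.

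Cells enter cluster 7 by their expression, so the markers were also measured in clusters 0, 7 and 10 summed together, a sum that does not depend on the split and that includes the cluster 7 cells. There 532 of 10494 genes differed (5.07%). Thrsp stood at 721 to 1230 CPM in 6 FGF1 mice and 453 to 622 CPM in 6 vehicle mice, with a log2 fold change of 0.85 (SE 0.124, FDR 0.000291, edgeR). Kctd14 stood at 230.3 to 395 CPM against 135 to 166 CPM (0.95, SE 0.126, FDR 0.000104, edgeR). Neither gene overlapped between the groups, as was the case for 2.47% of all tested genes. Ucma (0.78, SE 0.318, FDR 0.19, edgeR), Crym (0.65, SE 0.191, FDR 0.0626, edgeR) and Frzb (0.12, SE 0.126, FDR 0.632, edgeR) were not called in the sum.

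Thrsp and Kctd14 lie side by side on chromosome 7, and their neighbourhood was read after their values were seen. In the gene annotation on GRCm38, Thrsp lies at chr7:97412938-97417730 on the minus strand and Kctd14 at chr7:97451323-97459557 on the plus strand. On the other side of Thrsp lies Ndufc2, a subunit of respiratory complex I, at chr7:97400003-97407802 on the plus strand. Of 14 protein-coding genes within 500 kb of Thrsp, 7 were tested in cluster 7. Apart from Thrsp and Kctd14, for which the window was read, 1 of the 5 others was higher after FGF1 (Ndufc2) and 0 were lower, against 0.968% of all tested genes in each direction. Ndufc2 had 1337, 1631, 1335, 1390 and 1440 CPM in FGF1 mice 7, 10, 21, 28 and 36, and 796, 931 and 1256 CPM as the lowest, median and highest of the vehicle mice. It rose by 0.59 on the log2 scale without overlap (SE 0.122, FDR 0.00696, edgeR). With cells thinned to 700 UMIs Ndufc2 was not called (FDR 0.1165, edgeR). The other tested neighbours were not called, with log2 differences of 0.42 for Ints4, 0.35 for Aamdc, 0.41 for Clns1a and 0.07 for Rsf1. Between clusters, Ndufc2 stood at 1385, 863 and 795 CPM in clusters 7, 0 and 10, and at a median of 352 CPM over the other clusters, where Thrsp had a median of 70.6 CPM. Of the leading genes, Crym at chr7:120186380-120202111 and Tmem159 at chr7:120102353-120120992 also lie near each other.

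The stretches before the starts of Thrsp and Ndufc2 are shown because these neighbours on opposite strands were both called higher. They are RefSeq sequence on GRCm38.p6, 5′ to 3′ on the strand of the gene, with capitals for a CCAAT match. For Thrsp, on the minus strand, the 70 bases that no annotated exon covers are shown, chr7:97417731-97417800, and for Ndufc2, on the plus strand, 250 bases, chr7:97399753-97400002. The RefSeq start of Thrsp lies inside the gene as annotated above, with the searched window at chr7:97417551-97417800. The 70 bases are the end of that window farthest from the RefSeq start.
Thrsp: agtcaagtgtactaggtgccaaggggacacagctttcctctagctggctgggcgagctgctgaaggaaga
Ndufc2: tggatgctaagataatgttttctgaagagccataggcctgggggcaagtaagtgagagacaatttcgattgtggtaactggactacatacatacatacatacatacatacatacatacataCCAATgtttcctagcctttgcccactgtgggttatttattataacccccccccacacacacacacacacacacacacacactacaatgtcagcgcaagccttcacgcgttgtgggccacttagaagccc
The TATA box TATAAA, the CCAAT box, the E-box CACGTG, the D-box TTATGNAA and the nuclear receptor motif AGGTCA were searched on both strands in the 250 bases before each start. Counted from the RefSeq start, Thrsp held CCAAT at -79 and -52, both inside an annotated exon and not shown, and Ndufc2 held it at -129. CCAAT occurs in 34.5% of 27025 promoter windows of this length, and a match is a description of letters, not of a bound site.

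The next values are those of the 12 genes with the largest rise among those without overlap. Vim, the intermediate filament of tanycytes and reactive glia, had 908, 772, 801, 690.4 and 823 CPM in FGF1 mice 7, 10, 21, 28 and 36, and 264, 386 and 511 CPM as the lowest, median and highest of the vehicle mice. Its log2 fold change was 1.00 (SE 0.142, FDR 5.81e-05, edgeR). Tubb2b, a beta tubulin, had 187, 232, 190.1, 158 and 196 CPM against 34.5, 90.1 and 134 CPM and rose by 0.93 on the log2 scale (SE 0.194, FDR 0.00731, edgeR). In both genes the lowest FGF1 mouse lay above the highest vehicle mouse. The alpha tubulin gene Tuba1a stood at 821 to 968 CPM in FGF1 mice and 356 to 712 CPM in vehicle mice and rose by 0.70 (SE 0.139, FDR 0.00479, edgeR). Msn (moesin), which ties actin to the membrane, rose by 0.86, the actin adaptor gene Sorbs2 by 0.69, and Sirt2, an NAD-dependent deacetylase of tubulin and other proteins, by 0.73. Msn and Sirt2 lost their calls without vehicle mouse 25.

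The largest rise of the 12 was that of Cdh13 (T-cadherin), a membrane-anchored cadherin that binds adiponectin. It had 42.0, 38.3, 48.5, 44.2 and 49.8 CPM in FGF1 mice 7, 10, 21, 28 and 36, and 6.34, 18.6 and 29.4 CPM as the lowest, median and highest of the vehicle mice. Its log2 fold change was 1.38 (SE 0.298, FDR 0.00858, edgeR). S100a11, a calcium-binding protein, had 322, 302, 251, 312 and 245 CPM against 91.9, 128 and 158 CPM and rose by 1.15 (SE 0.161, FDR 5.81e-05, edgeR). Neither gene overlapped between the groups, and both were called with any 1 mouse left out. Cryab, a small heat shock protein, rose by 0.98 (SE 0.182, FDR 0.00228, edgeR), but its 114 CPM in cluster 7 lay below the 1707 CPM of oligodendrocyte-like cells, which express it, and the 149.5 CPM of endothelial-like cells. With cells thinned to 700 UMIs Cryab had a log2 difference of 0.57 and was not called (FDR 0.419, edgeR). Sdcbp (syntenin), a scaffold of vesicle traffic, rose by 0.80, Paip2, a repressor of translation, by 0.72 and the dehydrogenase gene Dhrs1 by 0.69. Dhrs1 lost its call without FGF1 mouse 10, FGF1 mouse 36 or vehicle mouse 25. With cells thinned to 700 UMIs Tubb2b, Msn, Sirt2, Paip2, Sorbs2 and Dhrs1 were also not called (FDR 0.0843 to 0.23, edgeR), and Cdh13 was not tested. Vim, S100a11, Tuba1a and Sdcbp kept their calls there.

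**Figure D4:**
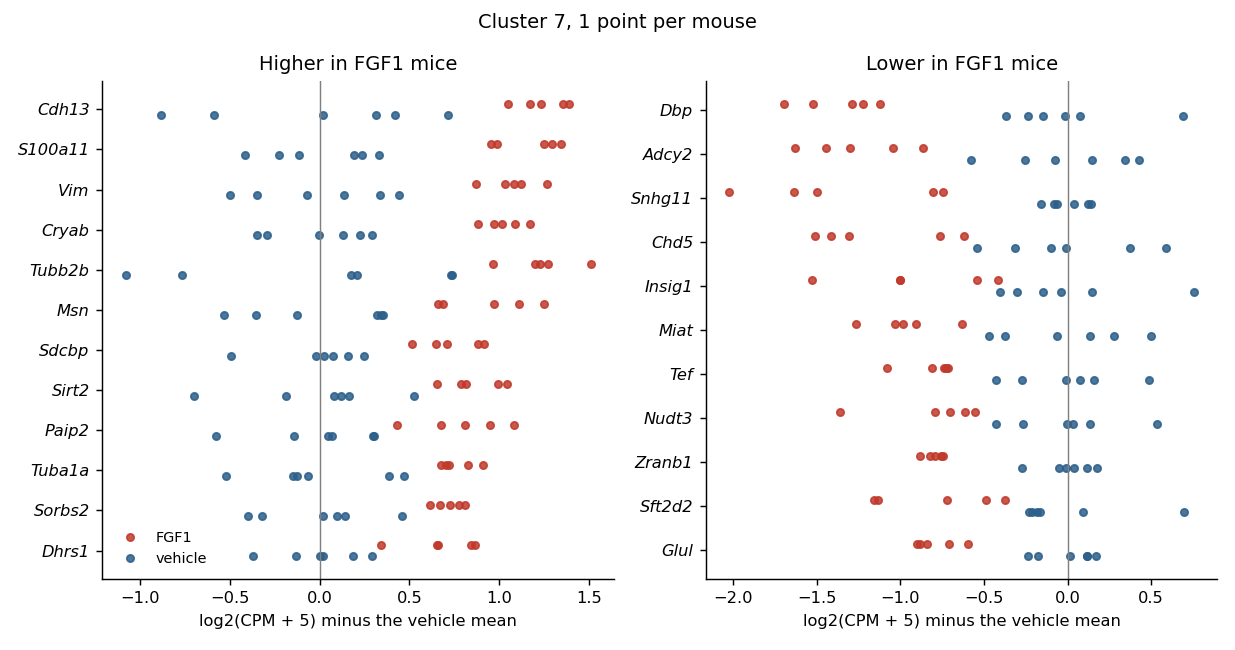
Levels of the 12 genes with the largest rise and 11 of the 12 with the largest fall after FGF1 in cluster 7, as log2(CPM + 5) minus the vehicle mean of the gene (horizontal axis), with 1 point per mouse for 5 FGF1 and 6 vehicle mice. The genes were chosen for groups that do not overlap, as was the case for 39 of the 78 called genes and for 115 of the 4027 tested (2.86%), so the separation of the points is given by the choice.

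Among genes lower after FGF1 without overlap, the largest fall was that of Dbp, a transcription factor at the output of the circadian clock. It had 44.5, 46.8, 32.4, 37.2 and 50.6 CPM in FGF1 mice 7, 10, 21, 28 and 36, and 88.8, 109.7 and 191 CPM as the lowest, median and highest of the vehicle mice. It fell by 1.33 on the log2 scale (SE 0.189, FDR 5.81e-05, edgeR). Adcy2, an adenylyl cyclase, had 36.5, 32.5, 44.5, 51.1 and 28.0 CPM against 63.3, 99.9 and 132 CPM and fell by 1.30 (SE 0.222, FDR 0.000832, edgeR). For both genes all FGF1 mice lay below all vehicle mice, and the calls held with any 1 mouse left out. The chromatin remodeller gene Chd5 fell by 1.14, the long noncoding RNA Miat fell by 0.84 and the vesicle transport gene Sft2d2 fell by 0.81. Chd5 and Sft2d2 lost their calls without vehicle mouse 25, and Miat was called in 4 of 11 fits with a mouse left out and not with the batch as a block (FDR 0.0753, edgeR). With cells thinned to 700 UMIs Sft2d2 was not called (FDR 0.317, edgeR), and Dbp, Adcy2, Chd5 and Miat were not tested.

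The remaining 7 of the 12 largest decreases without overlap were in genes whose level over all cells of cluster 7, most of them from FGF1 mice, lay at or below that of both oligodendrocyte-like cluster 2 and endothelial-like cluster 3. Glul, glutamine synthetase, stood at 426, 2679 and 1278 CPM in clusters 7, 2 and 3. Snhg11, a long noncoding RNA abundant in neurons, stood at 59.2, 73.5 and 78.5 CPM. Also among them were Insig1, which holds the sterol regulator in the endoplasmic reticulum, the clock output factor Tef, the phosphohydrolase gene Nudt3 and the deubiquitinase gene Zranb1. On the log2 scale the fitted differences were -1.20 for Snhg11, -0.84 for Insig1, -0.84 for Tef, -0.82 for Nudt3, -0.82 for Zranb1 and -0.81 for Glul. With a mouse left out, Insig1 was called in 6 of 11 fits, Nudt3 in 8 and Zranb1 in 9, and Insig1 was not called with the batch as a block (FDR 0.0641, edgeR). The glutamate transporter gene Slc1a2, with a difference of -0.69, stood at 909, 1150 and 1098 CPM in the same clusters, and the GABA transporter gene Slc6a11, with -0.73, at 279.8, 591 and 515 CPM. Without the low-count filter Insig1, Tef, Nudt3, Zranb1, Slc1a2 and Slc6a11 were not called (FDR 0.0514 to 0.127, edgeR), whereas Glul and Snhg11 were. With cells thinned to 700 UMIs Glul and Slc1a2 were called, and Snhg11 and Slc6a11 were not (FDR 0.0585 for each, edgeR).

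Over all calls, 21 of the 39 lower genes and 2 of the 39 higher genes (Stmn1 and Cryab) were at or below both other clusters, as were 856 of all 4027 tested genes (21.3%). This comparison was made after the values were seen. Its levels pool all cells of a cluster, and 2728 of the 3318 cluster 7 cells came from FGF1 mice. Genes lower in those mice thus stand lower in the pooled level, so the split of 21 and 2 in part follows from the calls. Of the tanycyte genes higher in cluster 7, Gpr50 stood in cluster 2 at 106 CPM in FGF1 mice and 23.8 CPM in vehicle mice and Vim at 125 CPM in FGF1 mice and 30.8 CPM in vehicle mice, and Crym, which was not called in cluster 7, at 101 CPM in FGF1 mice and 22.2 CPM in vehicle mice. On the log2(CPM + 5) scale the differences of Thrsp, Kctd14, Gpr50, Vim and Crym were 1.07, 1.58, 1.93, 1.89 and 1.94 in cluster 2 and 0.69, 0.68, 0.72, 1.07 and 0.55 in cluster 7. The 2 clusters come from the same mice, the levels in cluster 2 are low, and the part of free RNA in either difference was not tested. The 39 higher genes had a median FGF1 minus vehicle difference of log2(CPM + 5) of 0.72 in cluster 7, 0.51 in cluster 2 and 0.33 in cluster 3, and the 39 lower genes one of -0.80, -0.27 and -0.40, in cells of the same mice. Astrocyte markers summed in cluster 7 to 3029 to 3815 CPM in FGF1 mice and 3741 to 5197 CPM in vehicle mice. Neuron markers summed to 105 to 201 CPM and 220.2 to 321 CPM, without overlap. The neuron markers include Snhg11, named above for groups that do not overlap, and the astrocyte markers include the called genes Slc1a2 and Slc6a11. Both sums thus in part follow from the calls. Of the neuron markers 3 were tested, with 1 log2 difference above 0 and 2 below. None of the 7 astrocyte and 5 neuron markers was at 0 in all mice, and the part of such RNA in the decreases was not tested.

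Clock genes were grouped after the values of Dbp, Tef and Per3 had been seen. Of 20 clock genes 12 were tested in cluster 7. Apart from the 3 genes that prompted the list, 0 of 9 were called by edgeR and 0 by DESeq2, which gave no adjusted p for 8 of them, and 3 had an unadjusted p below 0.05 by edgeR. Of all 4027 tested genes 0.968% were called lower and 15.8% had an unadjusted p below 0.05 by edgeR. All 9 of these clock genes had a log2 difference below 0, with a median of -0.31 against -0.01 over all genes. In cluster 0 of the same mice, 7 of 18 tested clock genes were lower and 0 higher, with Per2, Cry1, Ciart and Bhlhe41 beside Dbp, Tef and Per3. Of all genes tested in cluster 0, 5.27% were called in either direction. Per3, a period gene, had 77.3, 97.0, 64.7, 58.1 and 98.9 CPM in FGF1 mice 7, 10, 21, 28 and 36, and 102, 119 and 165 CPM as the lowest, median and highest of the vehicle mice. It fell by 0.66 on the log2 scale without overlap (SE 0.182, FDR 0.048, edgeR). Tef had 69.2, 73.1, 56.6, 74.4 and 74.0 CPM against 91.9, 128 and 178 CPM, also without overlap (SE 0.179, FDR 0.00858, edgeR), but lost its call without vehicle mouse 25. Tef was also not called without the low-count filter (FDR 0.0514, edgeR) or with cells thinned to 700 UMIs (FDR 0.0641, edgeR). Over all cells, most of them from FGF1 mice in cluster 7, Tef stood at 80.7 CPM there, below the 91.2 and 90.2 CPM of clusters 2 and 3. By the same measure Per3 lay above both clusters and Dbp above cluster 2 only. In vehicle mice Tef averaged 105.6 and 106.1 CPM in clusters 2 and 3, beside its cluster 7 median of 128 CPM. Dbp averaged 44.8 and 83.2 CPM in clusters 2 and 3 of vehicle mice, below each vehicle mouse in cluster 7. The members not called included Hlf, a relative of Dbp and Tef (-0.61, 95% interval -1.01 to -0.20, FDR 0.117, edgeR), the nuclear receptor gene Nr1d2 (-0.53, FDR 0.213, edgeR) and Clock itself (-0.52, FDR 0.284, edgeR). The study's methods give a morning window for collecting the nuclei and refer the dissection of the whole-cell brains to the same procedure, and the hour of each mouse is not given in the sources used here.

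The bases before the starts of Dbp, Tef and Per3 are shown because these were the 3 clock genes called lower. They are RefSeq sequence on GRCm38.p6, 5′ to 3′ on the strand of the gene, with capitals for the E-box CACGTG, the D-box TTATGNAA and CCAAT, which reads ATTGG on the other strand. For Dbp, on the plus strand, the stretch free of annotated exons is chr7:45704997-45705087, for the second start of Tef, on the plus strand, chr15:81811164-81811413, and for Per3, on the minus strand, chr4:151044666-151044915. The Dbp stretch is the end of its searched window, chr7:45704997-45705246, farthest from the RefSeq start.
Dbp: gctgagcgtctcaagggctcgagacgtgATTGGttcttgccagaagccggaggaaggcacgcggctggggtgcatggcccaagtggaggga
Tef: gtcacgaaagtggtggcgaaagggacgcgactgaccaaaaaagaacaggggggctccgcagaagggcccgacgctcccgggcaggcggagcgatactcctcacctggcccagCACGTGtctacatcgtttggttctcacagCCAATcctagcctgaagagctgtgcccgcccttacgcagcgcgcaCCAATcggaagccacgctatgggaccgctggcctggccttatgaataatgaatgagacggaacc
Per3: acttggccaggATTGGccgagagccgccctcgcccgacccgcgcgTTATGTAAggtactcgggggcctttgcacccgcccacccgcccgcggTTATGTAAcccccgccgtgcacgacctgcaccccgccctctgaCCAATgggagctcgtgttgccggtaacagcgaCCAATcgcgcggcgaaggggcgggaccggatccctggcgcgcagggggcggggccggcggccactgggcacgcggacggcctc
Per3 held the D-box at -205 and -158, and 3.23% of all 27025 promoter windows hold one. The second start of Tef held an E-box at -138, and 6.05% of all windows hold one. Dbp held neither in this window, which says nothing of sites elsewhere. Crym and Kctd14 were not in the table of promoters.

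The counts of the pathway lists stand beside the 0.968% of all tested genes that were called higher and the 0.968% called lower. Of the glial filament and reactive genes, 10 were tested and 4 were higher (Vim, S100a11, Cd44 and Anxa2), 0 lower and 6 not called, with a median log2 difference of 0.63 against -0.01 over all genes. Cd44, the hyaluronan receptor, rose by 0.79 and Anxa2, a calcium-dependent membrane binder, by 0.62, with groups that overlapped. Cd44 was called in 7 of 11 fits with a mouse left out and not with the batch as a block (FDR 0.0522, edgeR), and Anxa2 was not called without vehicle mouse 25 or with at least 5 cells per mouse (FDR 0.0529, edgeR). S100a6 (0.42, 95% interval 0.17 to 0.68, FDR 0.0751, edgeR), S100a10 (0.60, FDR 0.0602, edgeR) and Lgals1 (0.72, FDR 0.133, edgeR) were not called. Of the pan-tanycyte genes, 12 were tested and 3 were higher (Vim, Gpr50 and Fabp7), 0 lower and 9 not called, with a median of -0.04. Gpr50, an orphan receptor related to the melatonin receptors, stood at 721 to 979 CPM in FGF1 mice and 312 to 749 CPM in vehicle mice and rose by 0.66 (SE 0.158, FDR 0.0209, edgeR). It lost its call without vehicle mouse 20 or 25, with the batch as a block (FDR 0.0624, edgeR) and with at least 5 cells per mouse (FDR 0.259, edgeR). Fabp7, a fatty acid binding protein of radial glia, rose by 0.89 but lost its call in 5 of 11 fits with a mouse left out.

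Among genes of lipid synthesis and thyroid hormone handling, Thrsp was the single one called higher in cluster 7. Against 0.968% of all tested genes in each direction, 1 of 13 tested genes of lipid synthesis was higher (Thrsp), 2 were lower (Scd2 and Insig1) and 10 were not called, with a median log2 difference of -0.48. Scd2, a stearoyl-CoA desaturase, stood at 647 to 997 CPM in FGF1 mice and 838 to 1938 CPM in vehicle mice. It fell by 0.73 on the log2 scale (SE 0.164, FDR 0.0184, edgeR) and lost its call without vehicle mouse 25. Its level in cluster 7, 839.8 CPM, lay below the 3295 CPM of cluster 2, an oligodendrocyte-like cluster. Fatty acid synthase Fasn (-0.45), the regulator Srebf1 (-0.57) and the sterol synthesis gene Hmgcs1 (-0.63) were not called. In cluster 0 of the same mice, 6 of 18 tested genes of lipid synthesis were lower, Fasn and Hmgcs1 among them, and 1 was higher (Thrsp). Of all genes tested in cluster 0, 5.27% were called in either direction. Of 8 tested genes of thyroid hormone handling 1 was higher, again Thrsp, and 0 were lower, with a median of -0.27. The deiodinase gene Dio2 (-0.41, 95% interval -1.10 to 0.28) and the receptor Thra (-0.52, -0.85 to -0.20, FDR 0.0828, edgeR) were not called.

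Of the remaining lists, again beside 0.968% of all tested genes in each direction, 1 of 6 tested Wnt modulators was higher (Wls, which carries Wnt proteins out of the cell, 0.67), 1 of 7 secreted peptides and growth factors (Ucma) and 1 of 13 antioxidant genes (Txn1, thioredoxin, 0.66), with no member lower. Wls was called in 2 of 11 fits with a mouse left out, and not with the batch as a block (FDR 0.0568, edgeR), at least 30 cells per mouse (FDR 0.0799, edgeR) or at least 5 (FDR 0.0504, edgeR). Txn1 lost its call without FGF1 mouse 10 or vehicle mouse 25 and with at least 5 cells per mouse (FDR 0.0724, edgeR). Of 81 tested ribosomal protein genes, a list chosen after values were seen, 4 were higher (Rpl7, Rps4x, Rplp0 and Rps3) and 0 lower, with a median of 0.15. By edgeR no member was called of 12 immediate early genes, 16 genes of glucose sensing and glycolysis, 13 Notch and progenitor genes, 4 tight junction genes, 3 FGF receptor and MAPK feedback genes, 2 retinoid genes, 4 ventral, 2 dorsal and 5 ependymal markers, and their medians ran from -0.36 to 0.295. Fos, an immediate early gene that tissue dissociation also induces, had a log2 difference of 0.47 (95% interval -0.38 to 1.32), and Fgfr1, a receptor of FGF1, had -0.26 (-0.66 to 0.15). Of the 30 leading genes of cluster 7, 2 were higher (Thrsp and Kctd14), 0 lower and 28 not called, with a median of 0.00, and of its 10 lowest genes none was called.

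The effect of FGF1 in cluster 7 was set beside that in clusters 0 and 10, which come from the same mice. In cluster 0, 498 of 9441 genes differed (5.27%), and in cluster 10, 48 of 2159 (2.22%). Thrsp had log2 fold changes of 0.68 in cluster 7, 0.65 in cluster 0 (FDR 0.000274, edgeR) and 0.68 in cluster 10 (FDR 0.017, edgeR). Kctd14 had 0.67, 0.90 (FDR 4.49e-05, edgeR) and 0.76 (FDR 0.453, edgeR), and Crym had 0.56, 0.55 (FDR 0.00569, edgeR) and -0.11 (FDR 0.974, edgeR). Thrsp was thus called in each of the 3 clusters, Kctd14 in clusters 7 and 0, and Crym in cluster 0. Of the 39 genes higher in cluster 7, 32 were also called higher in cluster 0, and of the 39 lower genes 25 were called lower there. All 39 of each list kept their direction in cluster 0. In cluster 10, 12 of 33 tested higher genes and 11 of 28 tested lower genes were called in the same direction. Vim had 1.00, 1.06 (FDR 1.46e-06, edgeR) and 0.74 (FDR 0.00967, edgeR), and Dbp had -1.33, -0.88 (FDR 0.000307, edgeR) and -0.90 (FDR 0.0227, edgeR).

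**Figure D5:**
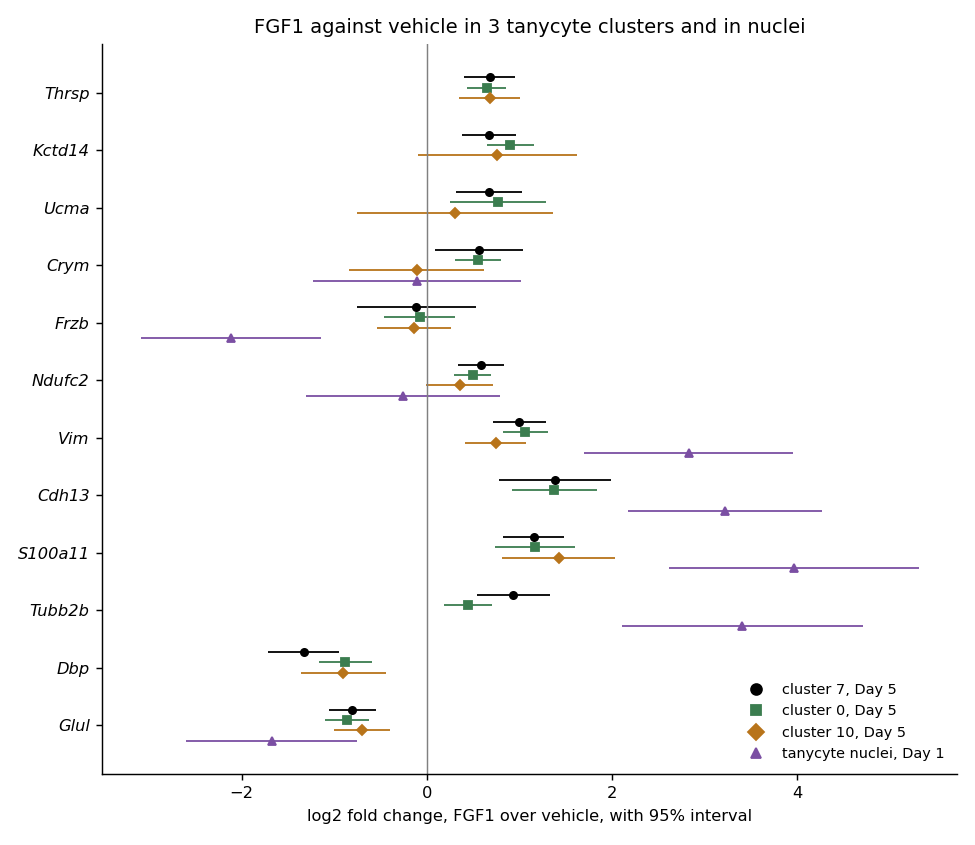
Log2 fold change of FGF1 over vehicle with 95% intervals for 12 genes in clusters 7, 0 and 10 on Day 5 and in tanycyte nuclei on Day 1, where a gene without a symbol was not tested. The intervals of the 3 clusters overlap for Thrsp, at 0.68, 0.65 and 0.68, and the nuclei, from other mice, lie farther out for Vim at 2.83 and Cdh13 at 3.22.

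The difference between clusters was tested as an interaction of cluster and treatment, with the mouse as a block. By edgeR 0 of 9008 genes differed in effect between clusters 7 and 0, with 508 at an unadjusted p below 0.05 (5.64%), and 0 of 3850 between clusters 7 and 10, with 205 (5.32%). Without the low-count filter 8 genes passed against cluster 0 and 1 against cluster 10. The intervals were wide, with a median half-width of 0.634 and 0.630 on the log2 scale, and on simulated data the fit against cluster 0 recovered 43% of differences of 1 and 87% of differences of 2. For Thrsp the effect in cluster 7 differed by 0.14 from that in cluster 0 (95% interval -0.04 to 0.31) and by -0.09 from that in cluster 10 (-0.47 to 0.29). For Kctd14 the differences were -0.10 (-0.37 to 0.16) and -0.18 (-1.04 to 0.68), and for Crym 0.06 (-0.13 to 0.26) and 0.66 (-0.18 to 1.51). Tubb2b gave 0.50 (0.16 to 0.83, FDR 0.632, edgeR) and 1.06 (0.47 to 1.64, FDR 0.446, edgeR), which did not pass the correction.

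Nuclei of other mice gave a second look at the cluster 7 genes. Supplier, chow, assay and, for the Day 1 nuclei, the day all differed from those of the whole cells and cannot be told apart. By the study's methods, reads of nuclei were counted on a reference with introns, unlike those of whole cells. The nuclei are not split into the whole-cell clusters, so all tanycyte nuclei of a mouse were summed. On Day 1, with 20 to 119 nuclei per mouse from 3 FGF1 and 3 vehicle mice, 297 of 3534 genes were called by edgeR (8.40%), of which 179 were higher (5.07%) and 118 lower (3.34%). Without vehicle mouse 1 the count was 45. Of the 39 genes higher in cluster 7, 29 were tested in the nuclei, and 12 were higher, 0 lower and 17 not called, with a median log2 difference of 1.53 against 0.05 over all genes. Of the 39 lower genes 25 were tested, and 4 were lower (Glul, Etnppl, Miat and Hist1h1c) and 0 higher, with a median of -0.49.

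Vim stood at 913, 1018 and 2529 CPM in the nuclei of the 3 FGF1 mice on Day 1 and at 155, 177 and 294 CPM in those of the 3 vehicle mice, and its log2 fold change was 2.83 (SE 0.518, FDR 0.0063, edgeR). Cdh13 stood at 1084, 1111 and 1480 CPM against 80.8, 102 and 231 CPM and rose by 3.22 (SE 0.481, FDR 0.00272, edgeR). Neither gene overlapped between the groups, as was the case for 28.0% of all tested genes. S100a11 (3.96), Cd44 (3.60), Tubb2b (3.40), Dhrs1 (3.20) and Txn1 (2.09) rose as well. Msn (1.34, FDR 0.0521, edgeR), Sirt2 (-0.09, FDR 0.915, edgeR) and Sorbs2 (-0.20, FDR 0.788, edgeR) were not called. Glial filament and reactive genes had 15 of 16 tested members higher and 0 lower, against 5.07% of all tested genes called higher, with a median of 3.22.

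Of the markers of cluster 7, 1 was called in these nuclei. Frzb stood at 25.3, 32.2 and 36.5 CPM in FGF1 mice and 81.5, 128 and 185 CPM in vehicle mice on Day 1, without overlap, and fell by 2.12 on the log2 scale (SE 0.446, FDR 0.0133, edgeR). Crym was not called (-0.10, 95% interval -1.23 to 1.02), and Thrsp, Kctd14 and Ucma were too low to be tested. On Day 1 Thrsp stood at 23.45, 6.32 and 24.4 CPM in FGF1 mice and at 80.8, 123 and 0 CPM in vehicle mice. Kctd14 stood at 17.6, 12.65 and 12.2 CPM against 26.9, 61.5 and 0 CPM, and Ucma at 0, 0 and 12.2 CPM against 33.7, 34.2 and 13.6 CPM. Of the 30 leading genes 16 were tested, with 2 higher and 3 lower, against 5.07% and 3.34% of all tested genes. Of the 16, 8 had a log2 difference above 0 and 8 below, with a median of 0.14 against 0.05 over all genes. S100a4 rose by 3.02 and Clic1, a chloride intracellular channel protein, by 1.86. The open reading frame 6330403K07Rik stood at 122 to 346 CPM in FGF1 mice and 1087 to 3138 CPM in vehicle mice, without overlap, and fell by 3.40 (SE 0.561, FDR 0.00396, edgeR). Adam23, a cell adhesion protein, fell by 2.15 and P3h2 fell by 1.75. In cluster 7 on Day 5, 6330403K07Rik had a log2 difference of 0.19 (95% interval -0.06 to 0.44) and was not called.

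On Day 5 the nuclei left 2 FGF1 mice against 1 vehicle mouse, since vehicle mouse 28 had 9 tanycyte nuclei and was dropped, and the lone vehicle mouse was assumed to vary like the others. Of 4483 genes 2 were called by edgeR (0.0446%), with 374 at an unadjusted p below 0.05, and 0 by DESeq2. Of the 39 higher genes 34 were tested and 0 were called, with a median log2 difference of 0.58 against 0.04 over all genes, and of the 39 lower genes 29 were tested and 0 called, with a median of -0.18. The spread of this fit comes from the 2 FGF1 mice, so these counts do not test the cluster 7 genes. Thrsp stood at 161 to 209 CPM in the FGF1 mice and 103 CPM in the vehicle mouse, and Ucma at 67.39 and 68.15 against 44.3 CPM. Kctd14 stood at 87.6 and 58.85 against 59.1 CPM and Crym at 115 and 173.5 against 133 CPM, with the vehicle mouse between the FGF1 mice. Frzb was lower in both FGF1 mice, at 60.65 and 142.5 against 148 CPM.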

How the data were processed

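RNA was measured in single hypothalamic cells of 12 mice and single nuclei of 10 mice. The authors aligned reads to mm10 with Cell Ranger 1.2, removed low-quality barcodes and, from the whole cells, doublets and neurons, clustered cells with Seurat, and deposited raw UMI counts per gene and cell and, in the metadata, the mitochondrial and ribosomal percent of each cell. The deposited normalized tables were not used. Per the labels, each sample was 1 mouse, and groups were taken from the sample titles. One vehicle title, for mouse 35, reads FP where the others read PF, and its treatment label gives vehicle with pair-feeding.

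Here raw UMIs were summed per mouse over the cells of a cluster (Python 3.11.15, pandas 2.3.3, numpy 2.4.6, scipy 1.17.1), and mice with fewer than 10 such cells were dropped. Genes passing filterByExpr were fitted with edgeR 4.0.16 in R 4.3.3 (TMM factors, robust quasi-likelihood test, Benjamini-Hochberg FDR below 0.05). CPM per mouse from the fits used the TMM-scaled totals. Levels over all cells of a cluster, and the within-mouse differences that ranked leading and lowest genes, used plain UMI totals. Sums over the fitted mice held 67758 to 2566399 UMIs, so low levels are coarsest in vehicle mouse 27, which had the fewest, and all intervals on shares cover counting error only. The fits were tested on simulated data. In cluster 7 they recovered 86% of genes changed by 1 and 100% of genes changed by 2 on the log2 scale, with 6.06% false calls, and the interaction with cluster 0 had 4.41% false calls. Alternatives were DESeq2 1.42.0, RLE factors, no low-count filter, cells with at most 20% mitochondrial and ribosomal UMIs, batch as a block, at least 30 cells per mouse, thinning to 700 UMIs per cell, and each mouse left out. A minimum of 5 cells or nuclei, and the sum of clusters over the same 11 mice, were added after seeing the data.

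The members and lists were chosen with earlier results of these data known. Named genes were the 5 markers, the 30 leading and 10 lowest genes, the 12 largest called rises and 12 largest called falls with groups that do not overlap, and list members that were called, up to 4 per list by mean CPM, or whose role is described. Clock and ribosomal protein genes, the neighbours of Thrsp, the motifs and the comparison with clusters 2 and 3 were chosen after values were seen. Promoters came from RefSeq. Counting used the default parameters of Cell Ranger on 3′ libraries, which keep sense-strand reads. The values of 2 genes of these sets are not reported here.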

Additional observations from a re-analysis of the deposited data

Results flagged for a closer look

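In 62 groups of mice checked for cluster 7, 5 had 1 mouse far from the others of its group, where chance would give about 1 in 20 groups. Vehicle mouse 35 had 29.4% of its tanycytes in cluster 7, above the other vehicle mice. Its median of 1651 UMIs per cluster 0 cell was also the highest of the vehicle mice. Vehicle mouse 27, with 26 cluster 7 cells, had the highest vehicle level of Frzb (881 CPM), of the clock output gene Dbp (191 CPM) and of Sft2d2 (396 CPM). Vehicle mouse 22, with 53 cluster 7 cells, had the highest vehicle level of Insig1 (138 CPM).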

How the results depend on the processing

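In cluster 7 the 78 called genes became 78 with RLE factors, 81 with cells of at most 20% mitochondrial and ribosomal UMIs, 97 with DESeq2, 112 with the batch as a block (45 higher, 67 lower), 61 with at least 30 cells per mouse, 61 with at least 5 (added after seeing the data), 124 without the low-count filter and 16 with cells thinned to 700 UMIs, where 1436 genes were tested. Of the 78, 54 were still called without the filter, 66 with the batch block, 51 by DESeq2 (26 had no adjusted p) and 14 after thinning (23 were not tested). With a mouse left out, the counts ran from 28 (without vehicle mouse 25) to 111 (without FGF1 mouse 28) in cluster 7, from 203 (without vehicle mouse 20) to 923 (without vehicle mouse 35) in the 3 clusters summed (532 with all mice, and also moved by over 1.5 times by FGF1 mice 7, 10 and 28 and vehicle mouse 25, to 288, 319, 813 and 227), from 45 (without vehicle mouse 1) to 376 (without FGF1 mouse 3, and 192 without FGF1 mouse 2) in Day 1 nuclei (297 with all mice), and from 0 to 4 and from 0 to 3 for the interactions with clusters 0 and 10, which had 0 with all mice and 8 and 1 without the filter. Without the filter Day 1 nuclei gave 563 genes and Day 5 nuclei 28, and Day 5 nuclei gave 0 by DESeq2 and 0 with at least 5 nuclei per mouse (added after seeing the data), against 2. Leaving out a mouse was not run for Day 5 nuclei, since 1 vehicle and 2 FGF1 mice were fitted. In cluster 7 the difference of Frzb, -0.11, ran from -0.22 to 0.0922 with a mouse left out, and was above 0 without the filter (0.0503), without FGF1 mouse 10 (0.059), without vehicle mouse 27 (0.0922) and with at least 30 cells per mouse (0.0922). The cause of these changes was not tested. The difference in the share of tanycytes ran from 6.14 to 16.6 points with a mouse left out. For single genes, 273 values kept direction and call under the other settings, 43 lost the call, 2 gained it and 2 turned, and with a mouse left out 412 kept both, 68 lost the call and 2 turned. In Day 1 nuclei a replicate block on the numbers of the labels gave 223 genes. Same-numbered nuclei samples deviated with correlations of -0.0763, -0.266 and 0.18, and 3 pairs are too few to tell whether the numbers pair the mice. The whole-cell groups share no number. Vehicle mice gave 26 to 239 cluster 7 cells, which limits the precision of their levels.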

Other observations

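Other genes called in cluster 7 were read after their values were seen, and no list was tested for them. Anxa5, an annexin that binds phospholipids with calcium (0.60, SE 0.131, FDR 0.01, edgeR), was higher and kept its call in 11 of 11 fits with a mouse left out. Slc5a3, a myo-inositol transporter, had the second largest log2 fold change of the 39 higher genes (1.19, SE 0.264, FDR 0.0107, edgeR), at 46.5 to 76.7 CPM in FGF1 mice and 0 to 50.8 CPM in vehicle mice, with groups that overlapped, and its exons overlap those of Mrps6 on the same strand. The elongation factor genes Eef1a1 (0.51, SE 0.121, FDR 0.0168, edgeR) and Eef1d (0.79, SE 0.178, FDR 0.0155, edgeR) and the interferon-responsive gene Ifi27 (0.60, SE 0.142, FDR 0.0175, edgeR) were higher too, and Eef1a1 has many processed pseudogenes. The G1 cyclin gene Ccnd2 stood at 241 to 376 CPM in FGF1 mice and 160.3 to 210.4 CPM in vehicle mice without overlap (0.60, SE 0.153, FDR 0.0287, edgeR), but kept its call in 4 of 11 fits with a mouse left out. Ccnd2 was also not called with the batch as a block (FDR 0.0502, edgeR), with at least 30 cells per mouse (FDR 0.0533, edgeR) or with at least 5 (FDR 0.0752, edgeR). Slc5a3, Eef1a1, Eef1d, Ifi27 and Ccnd2 lost their calls without vehicle mouse 25. Eef1a1 lost its call also without FGF1 mouse 7 or vehicle mouse 20 and with at least 5 cells per mouse (FDR 0.0644, edgeR), Eef1d without vehicle mouse 20 or 29, and Ifi27 without FGF1 mouse 7.

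Among the lower genes, Etnppl, a phospholyase gene of astrocytes, had the largest fall (-1.70, SE 0.260, FDR 0.000221, edgeR) with groups that overlapped, and its 37.0 CPM in cluster 7 lay below the 122 and 90.1 CPM of clusters 2 and 3. Levels in cluster 7 lay above both of those clusters for Chil1, a secreted chitinase-like protein (-1.07, SE 0.216, FDR 0.00491, edgeR), and Apoc1, an apolipoprotein (-0.73, SE 0.162, FDR 0.0109, edgeR), each with groups that overlapped. Etnppl and Apoc1 kept their calls in 11 of 11 fits with a mouse left out, and Chil1 in the 10 in which it passed the low-count filter. Apoc1 was not called when that filter was left off (FDR 0.059, edgeR). Deptor, an inhibitor of the kinase mTOR, stood at 68.8 to 118 CPM in FGF1 mice and 125 to 241 CPM in vehicle mice without overlap (-0.70, SE 0.173, FDR 0.0234, edgeR), but kept its call in 5 of 11 such fits. The RNA-processing genes Hnrnpa1 (-0.68, SE 0.147, FDR 0.00858, edgeR), Alyref (-1.16, SE 0.279, FDR 0.0191, edgeR) and Srsf2 (-0.65, SE 0.177, FDR 0.0467, edgeR) and the linker histone gene H1f0 (-1.11, SE 0.243, FDR 0.0131, edgeR) had levels below both clusters 2 and 3. Hnrnpa1 kept its call in 11 of 11 such fits, H1f0 in 10, Alyref in 7 of the 10 in which it was tested and Srsf2 in 2. Hnrnpa1 was not called without the low-count filter (FDR 0.127, edgeR) or with cells thinned to 700 UMIs (FDR 0.0971, edgeR). Srsf2 was also not called with the batch as a block (FDR 0.0502, edgeR), with at least 30 cells per mouse (FDR 0.0916, edgeR) or with at least 5 (FDR 0.065, edgeR), and Deptor was not called with at least 30 (FDR 0.052, edgeR). H1f0, Alyref, Srsf2 and Deptor lost theirs without vehicle mouse 25.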
